A study of Mus musculus with 6 samples.

Results

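The nuclear genes for respiratory complexes II to V and cytochrome c were compared between control and Hif1a mutant mouse hearts. They were taken from the expression table by gene symbol. The symbols were Sdha, Sdhb, Sdhc, Sdhd, Cyc1, Cycs and all that begin with Uqcr, Cox4, Cox5, Cox6, Cox7, Cox8 or Atp5, without pseudogene symbols that hold -ps. This gave 47 of 15118 genes: 4 of complex II, 9 of complex III, cytochrome c, 16 of complex IV and 17 of complex V. Cox7a2l, which joins complexes III and IV, Atp5s (coupling factor B) and its relative Atp5sl came in by their symbols and are not classical subunits.

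The 6 samples were whole hearts of Black-Swiss embryos at E12.5, an embryonic stage counted in days after mating. All 6 embryos carried 1 NKX2-5 allele with Cre recombinase (NKX2-5 Cre/WT), which acts in heart progenitors and heart muscle and removes loxP-flanked (flox) DNA there. The 3 control hearts (2, 5 and 9) were Hif1a WT/flox and the 3 mutant hearts (5, 8 and 10) were Hif1a Null/flox. Recombined control cells thus keep a working Hif1a allele and recombined mutant cells keep none, and cells without Cre activity differ too, with 2 working alleles in control and 1 in mutant hearts. The Hif1a protein is the part of the transcription factor HIF1 that oxygen controls. The promoter of Cre limits recombination to cells with a history of Nkx2-5, while the null allele is present throughout the mutant embryo.

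The respiratory chain sits in the inner mitochondrial membrane. Complex II passes electrons from succinate to ubiquinone, complex III passes them from ubiquinol to cytochrome c, and complex IV passes them from cytochrome c to oxygen. Complexes III and IV pump protons, and complex V, the ATP synthase, uses the returning protons to make ATP. Some complex IV subunits exist as a ubiquitous form and a form restricted to heart and skeletal muscle or to other tissues. In cells kept in low oxygen HIF1 is known to raise Cox4i2 and the protease gene Lonp1, whose product degrades the Cox4i1 protein. Complex III, IV and V subunits made from mitochondrial DNA were not analysed here.

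Levels are RPKM values, which divide reads by exon length in kilobases and by the read total of each heart's library. Log2 changes are mutant minus control on log2(RPKM + 1), with the standard error (SE) from limma. A gene was called where its limma p, adjusted by Benjamini-Hochberg over all 13080 tested genes, was under 0.05. The steps between low values imply 100500000 (mutant 8) to 157300000 reads (mutant 10) per heart, within the preset range of depths that was searched. The labels call the samples separate hearts and give no more, so a p-value here reflects only how these 6 samples spread, which may be technical in part. Hif1a itself measured 61.2, 46.4 and 46.4 RPKM in controls 2, 5 and 9 and 75.7, 55.0 and 77.7 RPKM in mutants 5, 8 and 10 (limma adjusted p = 0.36). This value pools the exons of the gene and does not check the deletion. The hearts farthest apart on the first principal component, with 45.3% of the variance, were control 2 and mutant 8.

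To set ubiquitous beside muscle forms of complex IV subunits, the promoters of both pairs that RefSeq (GRCm38.p6) gave in full are shown, with that of Cox6a1, the gene with the largest positive change of the 47. Each sequence is the 250 bases before the start site, 5′ to 3′ on the gene's strand. Capitals mark matches on either strand to the palindromic motif of NRF1, to CCGGAAG (ETS factors) or to ACGTG (the core of a HIF site).
Cox6a1: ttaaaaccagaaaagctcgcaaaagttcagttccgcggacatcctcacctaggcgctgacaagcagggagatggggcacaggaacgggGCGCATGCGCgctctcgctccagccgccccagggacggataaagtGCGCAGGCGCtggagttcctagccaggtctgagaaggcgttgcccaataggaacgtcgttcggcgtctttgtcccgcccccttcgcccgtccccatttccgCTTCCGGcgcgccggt
Cox8a: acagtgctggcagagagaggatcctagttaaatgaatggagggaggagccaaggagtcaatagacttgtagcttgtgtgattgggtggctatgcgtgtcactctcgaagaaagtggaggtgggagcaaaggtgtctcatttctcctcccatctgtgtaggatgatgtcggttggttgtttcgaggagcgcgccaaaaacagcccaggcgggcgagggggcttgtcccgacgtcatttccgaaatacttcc
Cox8b: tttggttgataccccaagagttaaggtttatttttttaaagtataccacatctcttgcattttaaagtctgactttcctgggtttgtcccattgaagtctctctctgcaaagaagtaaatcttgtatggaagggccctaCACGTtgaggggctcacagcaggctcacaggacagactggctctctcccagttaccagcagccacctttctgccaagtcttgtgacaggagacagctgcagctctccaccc
Cox7a2: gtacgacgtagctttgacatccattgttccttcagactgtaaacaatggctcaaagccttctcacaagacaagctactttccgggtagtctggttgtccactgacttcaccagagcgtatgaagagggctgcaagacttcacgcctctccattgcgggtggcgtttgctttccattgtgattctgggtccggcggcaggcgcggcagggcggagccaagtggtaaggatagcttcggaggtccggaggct
Cox7a1: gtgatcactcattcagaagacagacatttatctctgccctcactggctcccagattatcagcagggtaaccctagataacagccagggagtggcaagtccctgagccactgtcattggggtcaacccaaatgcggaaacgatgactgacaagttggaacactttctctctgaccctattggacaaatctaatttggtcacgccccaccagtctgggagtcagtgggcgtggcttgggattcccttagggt
The windows lie on the minus strand at chr5:115348959-115349208 (Cox6a1), chr19:7217617-7217866 (Cox8a), chr7:140900447-140900696 (Cox8b) and chr9:79759854-79760103 (Cox7a2), and on the plus strand at chr7:30183921-30184170 (Cox7a1). The Cox6a1 window held 26 CpG dinucleotides, with 2 NRF1 matches and 1 ETS match. The ubiquitous Cox8a and Cox7a2 held 11 and 14 CpG, and the muscle forms Cox8b and Cox7a1 held 1 and 4. Within these 250 bases Cox8b held 1 ACGTG match, and Cox8a, Cox7a2 and Cox7a1 held no match to the letters searched. Matches that end past the start site were found for ETS in Cox8a and for ACGTG in Cox7a1 and Cox8b. They are not marked above and count in the 300 bases below.

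Of the 47 genes, 37 had a promoter of 300 bases (250 before to 50 after the start) in that table. Cox4i2, Cox4i1, Cox6a2, Cyc1 and Uqcrq were among those without one. Of the 37 genes, 10 (27.0%) held the NRF1 motif, against 5.19% of 27025 genes. The latter were not limited to genes expressed in these hearts. The ETS letters were in 12 (32.4% against 9.93%), AAGATGGCG (YY1) in 3 (8.11% against 1.64%) and TCAAGGTCA (oestrogen-related receptors) in 2 (5.41% against 0.466%). ACGTG was in 14 (37.8% against 21.8%). The MEF2 motif was in none (0.451% of all genes). Both strands were searched for each motif. ACGTG also lies within the palindrome CACGTG bound by other factors. The median CpG count was 19, against 8 over all genes. The letters for NRF1, ETS, YY1 and HIF sites hold CpG themselves. The shares were not compared with genes of like CpG count. The 18 genes with an NRF1 or ETS match had a median log2 change of 0.18 and the 19 without had 0.11. With and without each motif the medians were 0.20 and 0.12 for NRF1, 0.17 and 0.12 for ETS and 0.14 and 0.11 for ACGTG. None of these differences was tested.

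Cox4i2 was the single gene of the 47 that passed the threshold, and it fell. It encodes the second isoform of complex IV subunit 4, which is known mainly from lung and from cells in low oxygen. Cox4i2 (ENSMUSG00000009876, mm10 chromosome 2, 152754173 to 152765037, plus strand) measured 2.21, 2.33 and 3.60 RPKM in controls 2, 5 and 9. In mutants 5, 8 and 10 it measured 0.449, 0.455 and 0.612 RPKM. All 3 mutant hearts thus lay far below all 3 control hearts. The means were 2.71 ± 0.769 (SD, n = 3) and 0.505 ± 0.0920 RPKM (SD, n = 3), so that the mutant level was 0.186 of the control level. The log2 change was −1.29 ± 0.15 SE (limma adjusted p = 0.0044), and 12 of 13080 tested genes had a change as low or lower. With the exon length and the implied read totals these values give about 227, 252 and 349 reads in the control hearts. In the mutant hearts they give about 50, 36 and 76 reads. These counts rest on the preset range in which the totals were searched.

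Over all tested genes 0.398% were called lower and 0.42% higher in the mutant hearts, so a single call among 47 genes is no result about the group. Cox4i2 also entered the test only through the control hearts, since genes needed at least 1 RPKM in at least 3 libraries and no mutant heart reached that. It was not tested with a minimum of 5 RPKM, and it was past the threshold in each of the other 18 alternative settings (limma adjusted p from 0.00066 to 0.025). Its log2 change depended on the pseudocount, with −2.19 at 0.1 RPKM and −0.48 at 5 RPKM. Among whole hearts a lower value may come from fewer cells that express the gene or from less RNA per cell, which cannot be told apart here. Outside low oxygen Cox4i2 is known from mural cells of vessels. None of 7 tested mural markers was called, 2 had positive and 5 negative changes, and the median log2 change was −0.12. The smallest p-values were those of Notch3 (means of 2.37 in control and 1.82 RPKM in mutant hearts), Tagln (47.5 and 57.0 RPKM) and Pdgfrb (5.28 and 4.44 RPKM), with limma adjusted p of 0.57, 0.59 and 0.63. The direction of that median was not stable, with 0.01 without control 5, −0.21 without control 2, −0.05 without mutant 5 and 0.02 with a minimum of 5 RPKM. Rgs5 (means of 0.829 in control and 0.511 RPKM in mutant hearts) and Kcnj8 (0.756 and 0.738 RPKM) were too low to be tested. With both included, the summed level ranged from 383 to 433 RPKM in control and from 402 to 509 RPKM in mutant hearts. Acta2 made up the largest part of that sum (means of 241 and 271 RPKM). Acta2 and Tagln were the 2 genes with positive changes. The 5 with negative changes were Notch3 (−0.24), Pdgfrb (−0.19), Mcam (−0.15), Abcc9 (−0.12) and Cspg4 (−0.05). The sum thus mainly follows Acta2 and does not show the direction of most of these markers. The mural list was chosen after the Cox4i2 values were seen.

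Markers of other cells of the heart had lower values in the mutant hearts in some lists, beside the fall of Cox4i2. Of the 18 cardiomyocyte markers 11 had positive and 7 negative changes, with a median of 0.00. Their summed levels were 23100 to 25220 RPKM in control and 24290 to 26150 RPKM in mutant hearts. Myl7 measured 1550 and 2066 RPKM (limma adjusted p = 0.27). Pln, with the lowest change of the list, measured 315 and 239 RPKM (limma adjusted p = 0.47). All 11 tested macrophage markers had negative changes (median −0.62), with sums of 41.5 to 49.2 RPKM in control and 14.9 to 35.8 RPKM in mutant hearts. Mutant 10 had the lowest median of these markers (−1.17, against −0.30 in mutant 5 and −0.43 in mutant 8), and without it the median change was −0.37. It was −0.30 with a pseudocount of 5 RPKM. Fcer1g had the smallest p among them (5.11 and 2.86 RPKM, limma adjusted p = 0.12). Of 12 epicardial and mesenchymal markers 11 were negative (median −0.37), with sums of 494 to 537 RPKM and 312 to 431 RPKM. Col1a2 measured 81.8 and 46.6 RPKM (limma adjusted p = 0.11). The highest levels of the list were those of Col1a1 (118 and 84.4 RPKM) and Col3a1 (126 and 93.7 RPKM). Among its epicardial markers Upk3b, Aldh1a2 and Wt1 had the smallest changes of the list, 0.04, −0.01 and −0.13. Tcf21 and Tbx18 had −0.22 and −0.25. Of the 12 endothelial and endocardial markers 3 had positive and 9 negative changes, with a median of −0.15. Their sums were 169 to 195 RPKM and 161 to 181 RPKM. Cldn5 measured 2.57 and 1.08 RPKM (limma adjusted p = 0.064). Plvap, with the largest positive change of the list, measured 12.3 and 15.85 RPKM (limma adjusted p = 0.42). Of the 10 erythroid markers 3 had positive and 7 negative changes, with a median of −0.05 and sums of 16080 to 18480 RPKM and 13300 to 22190 RPKM. None of these markers was called. The part of these cells in the values of Cox4i2 or of the other respiratory genes was not tested.

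The ubiquitous partner Cox4i1, the subunit 4 present in most tissues, had higher values in every mutant heart and did not pass the test. It measured 561, 519 and 559 RPKM in controls 2, 5 and 9 and 649.7, 706 and 637 RPKM in mutants 5, 8 and 10. The log2 change was 0.28 ± 0.09 SE (limma adjusted p = 0.29). Cox4i2 made up 0.392%, 0.448% and 0.640% of the RPKM of both genes in the control hearts and 0.0691%, 0.0644% and 0.0959% in the mutant hearts. The difference in log2(RPKM + 1) between the genes was −7.22 ± 0.268 (SD, n = 3) in control and −8.79 ± 0.149 (SD, n = 3) in mutant hearts. The exact permutation test gave a two-sided p = 0.10, the smallest that 6 hearts allow (adjusted p = 0.35 over 7 pairs of genes). The genotypes thus differed by −1.57 on this scale. This size depended on the pseudocount, with −2.48 at 0.1 RPKM and −0.76 at 5 RPKM. All of Cox4i1 lies within the longer gene Gm20388 on the same strand (5986 shared bases), and the split of reads between them was not tested.

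**Figure D1:**
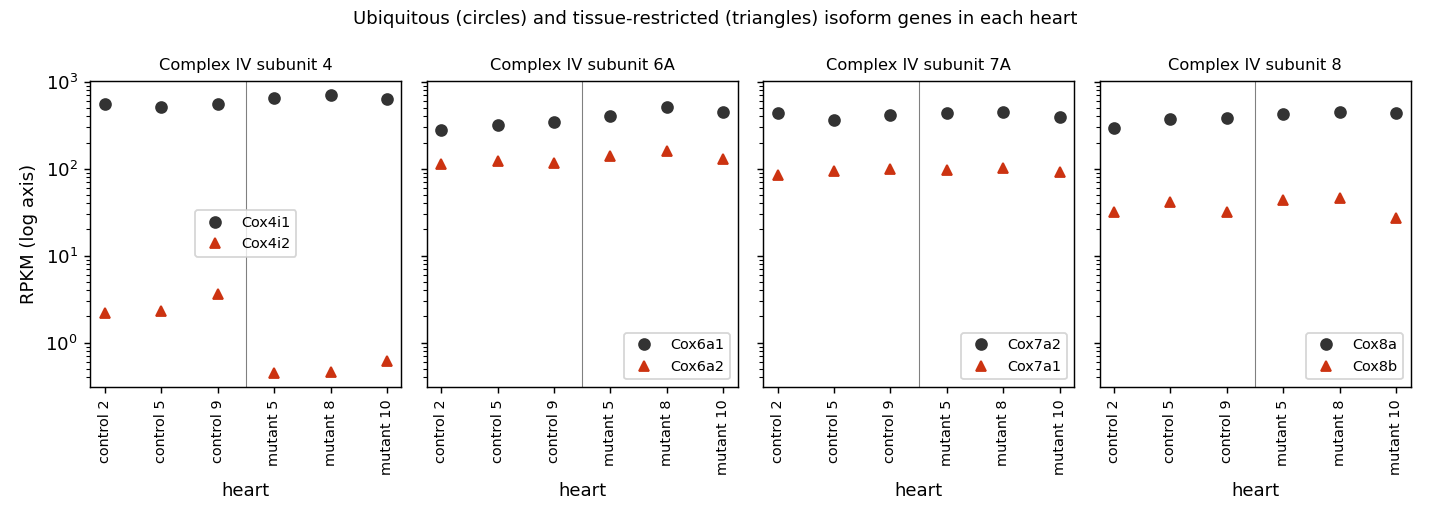
RPKM on a log axis of the ubiquitous isoform gene (circles) and the tissue-restricted isoform gene (triangles) of 4 complex IV subunits, with 1 point for each of the 6 hearts. Cox4i2 lies between 2.21 and 3.60 RPKM in the control and between 0.449 and 0.612 RPKM in the mutant hearts, while the other 7 genes differ less between genotypes.

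The other isoform pairs of complex IV showed no such separation. Cox6a2, the heart and muscle form of subunit 6A, measured 114, 124 and 115 RPKM in controls 2, 5 and 9 and 141, 161 and 129 RPKM in mutants 5, 8 and 10 (log2 change 0.28, limma adjusted p = 0.36). The ubiquitous Cox6a1 measured 279, 322 and 346 RPKM in the control hearts and 407, 508 and 444 RPKM in the mutant hearts. Both genes were higher in every mutant heart than in any control heart. Cox6a1 had the largest log2 change of the 47 genes, 0.52 ± 0.12 SE, and was not called (limma adjusted p = 0.12). Over the alternatives its adjusted p ranged from 0.049 to 0.35. It passed in 1 setting, with the trend against GC content removed. Cox6a2 made up 27.3% ± 2.10 (SD, n = 3) of the RPKM of the pair in control and 24.1% ± 1.66 in mutant hearts (exact permutation p = 0.20 on the log2 difference, adjusted p = 0.35). Cox6a2 lies wholly within Itgad, a gene on the opposite strand, and without knowledge of strand their reads cannot be told apart.

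Subunits 7A and 8 kept overlapping values in their muscle forms. Cox7a1, the heart and muscle form of 7A, measured 84.8, 93.6 and 99.6 RPKM in the control and 97.4, 101 and 91.9 RPKM in the mutant hearts (limma adjusted p = 0.82). The ubiquitous Cox7a2 measured 441, 365 and 411 RPKM in control and 433, 454 and 397 RPKM in mutant hearts (0.81). The share of Cox7a1 in the pair was 18.7% ± 2.25 (SD, n = 3) and 18.5% ± 0.291 (exact permutation p = 1.0). The direction of that pair's difference, −0.01 on the log2 scale, turned in 4 of the alternative settings. Cox8b, the muscle form of subunit 8, measured 31.7, 41.2 and 32.0 RPKM in control and 43.2, 45.7 and 27.4 RPKM in mutant hearts (limma adjusted p = 0.83). Mutant 10 had the lowest value of all 6 hearts and mutant 8 the highest. The ubiquitous Cox8a measured 295, 377 and 386 RPKM in control and 428, 455 and 436 RPKM in mutant hearts (log2 change 0.33, limma adjusted p = 0.34), with no overlap. The change of Cox8a was 0.20 without control 2. The share of Cox8b was 9.06% ± 1.22 (SD, n = 3) and 8.07% ± 1.86 (exact permutation p = 0.50). Without mutant 10 the difference of this pair was 0.02 on the log2 scale, against −0.20 with it, and in controls 2 and 5 with mutants 5 and 10 it was −0.44. The order of levels within each pair was the same in all 6 hearts, with the ubiquitous form higher.

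Cox6b2, a form of subunit 6B known from testis, was low in both genotypes. It measured 8.48, 10.5 and 10.0 RPKM in controls 2, 5 and 9 and 7.79, 9.89 and 8.89 RPKM in mutants 5, 8 and 10, with overlap (limma adjusted p = 0.75). The ubiquitous Cox6b1 was the most abundant of the 47 transcripts per length. It measured 979.8, 908 and 969.8 RPKM in control and 1031, 1294 and 939 RPKM in mutant hearts (limma adjusted p = 0.63). Only mutants 5 and 8 lay above the control hearts. The exact permutation p for this pair was 0.20 (adjusted p = 0.35).

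Complex IV as a whole had 16 tested genes, of which 12 had a positive log2 change, with a median of 0.11. None was called higher. Cox4i1, Cox5a, Cox5b, Cox6a1, Cox6a2 and Cox8a, 6 of the 16, were higher in all mutant hearts than in any control heart, as were 7.6% of all tested genes. Cox5a and Cox5b, which encode subunits without known tissue forms in mammals, had control means of 414 and 524 RPKM and mutant means of 480.1 and 686 RPKM. Cox7c, the last small subunit of the group, had means of 372 and 399.9 RPKM (0.11). The genes with negative changes beside Cox4i2 were Cox6b2 (−0.12), Cox7b (−0.10) and Cox6c (−0.04). Cox7a2l, which encodes a factor that joins complexes III and IV, measured 146 and 149 RPKM (log2 change 0.03). The median over complex IV was 0.04 without mutant 8, 0.05 in the set of controls 2 and 5 and mutants 5 and 10, which express chromosome Y genes, and 0.17 without control 2 or mutant 10. Rescaling without haemoglobin genes gave 0.07.

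**Figure D2:**
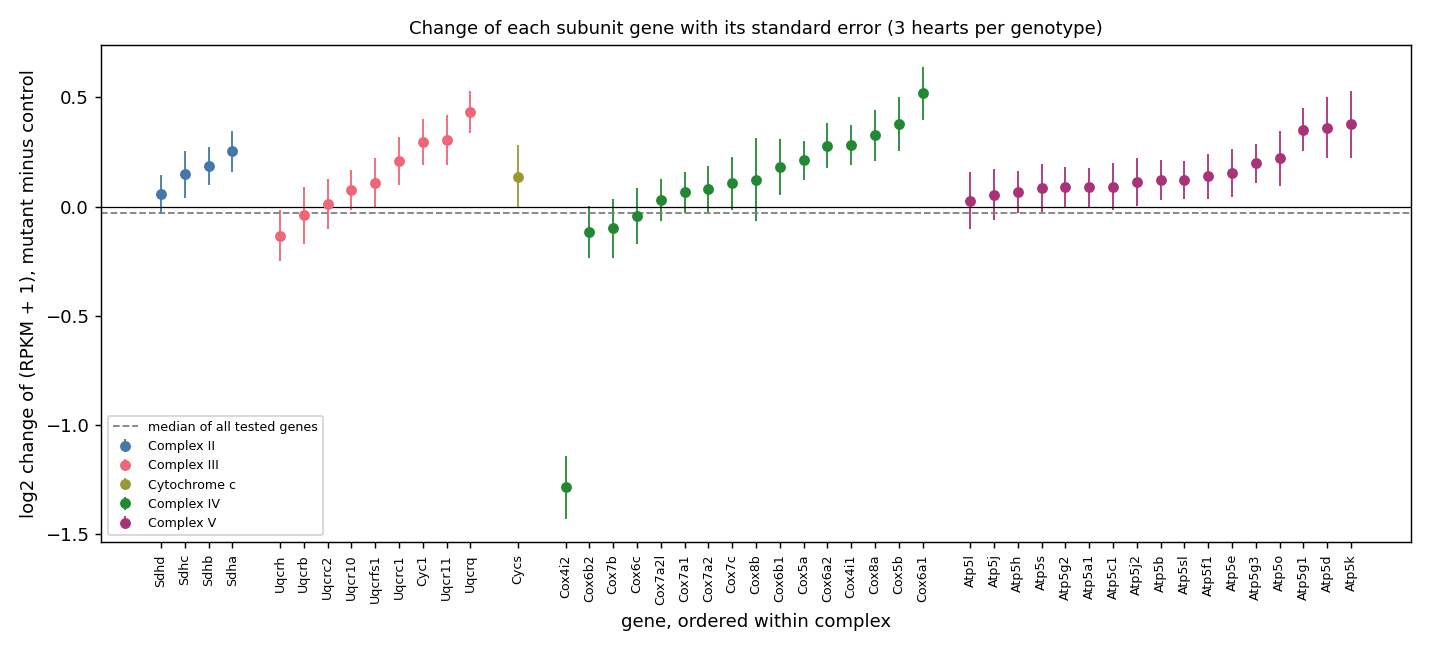
Log2 change of (RPKM + 1), mutant minus control, of each of the 47 genes (points) with its standard error (bars) from 3 hearts per genotype, ordered within each complex. Of the 47 changes 41 are above 0, and Cox4i2 at −1.29 is the only gene past the threshold.

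Complex II, succinate dehydrogenase, is made from 4 nuclear genes and none of them was called. Sdha, the flavoprotein that oxidises succinate, measured 129.9, 146 and 141 RPKM in controls 2, 5 and 9 and 159.8, 161 and 176 RPKM in mutants 5, 8 and 10. The groups did not overlap, and the log2 change was 0.25 ± 0.09 SE (limma adjusted p = 0.34). Sdha and Sdhb are the genes of the complex without overlap, beside 7.6% of all tested genes in this direction. Sdhb, the iron-sulfur subunit, measured 149, 140.5 and 149 RPKM in control and 174, 158 and 167 RPKM in mutant hearts, also with no overlap (log2 change 0.19, limma adjusted p = 0.47). The membrane anchors overlapped between genotypes. Sdhc measured 57.6 and 63.7 RPKM and Sdhd 212 and 221 RPKM as means of the control and mutant hearts. The median change of the complex was 0.17.

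Complex III had 9 tested genes, 7 with a positive change, and none was called. Uqcrq, a small subunit that contacts cytochrome b, measured 76.5, 79.9 and 81.9 RPKM in controls 2, 5 and 9 and 103, 120.3 and 100.4 RPKM in mutants 5, 8 and 10. The mutant hearts lay clear of the control hearts. The log2 change was 0.43 ± 0.10 SE (limma adjusted p = 0.11, and from 0.082 to 0.43 over the alternatives). Cyc1, the cytochrome c1 subunit that hands electrons to cytochrome c, measured 268, 295 and 306 RPKM in control and 316, 377 and 375 RPKM in mutant hearts, with no overlap (log2 change 0.30, limma adjusted p = 0.34). Uqcr11 was the third of 9 genes without overlap (7.6% of all tested genes), with means of 298 and 370.2 RPKM. The core subunits Uqcrc1 and Uqcrc2 had changes of 0.21 and 0.01, the Rieske iron-sulfur subunit Uqcrfs1 had 0.11 and the small subunit Uqcr10 had 0.08. Uqcrh and Uqcrb had negative changes of −0.13 and −0.04, and that of Uqcrb was 0.09 without control 2. The median of the complex was 0.11 and moved to 0.05 without mutant 5, 0.06 without mutant 10, 0.07 without control 9 and 0.17 without control 2 or mutant 8. It was 0.06 after rescaling without haemoglobin genes and 0.06 with the trend against exon length removed.

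Cycs, the somatic cytochrome c that carries electrons between complexes III and IV and acts in apoptosis, had no clear difference. It measured 188, 125 and 142 RPKM in controls 2, 5 and 9 and 168, 156 and 169 RPKM in mutants 5, 8 and 10 (log2 change 0.14 ± 0.14 SE, limma adjusted p = 0.75). Control 2 was the highest of all hearts and control 5 the lowest. Its change was 0.30 without control 2, 0.34 without control 2 and mutant 8 together, 0.01 without control 5 and 0.25 with the GC trend removed.

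Complex V had 17 tested genes, all with a positive change, with a median of 0.12 (0.08 after rescaling without haemoglobin genes), and none was called. Atp5l was negative in 5 of the alternative settings, and Atp5h, Atp5j and Atp5g2 in 1 each. The 3 genes for subunit c, the membrane ring, differed in their levels per length. Atp5g1 measured 97.2, 97.4 and 102 RPKM in controls 2, 5 and 9 and 121, 142 and 117 RPKM in mutants 5, 8 and 10, with no overlap (log2 change 0.35 ± 0.10 SE, limma adjusted p = 0.20). Atp5g3 measured 493, 483 and 511 RPKM in control and 536, 595 and 576 RPKM in mutant hearts, also with no overlap (0.20, limma adjusted p = 0.46). Atp5g2 measured 537, 482 and 522 RPKM in control and 583, 523 and 532 RPKM in mutant hearts, with overlap (0.09, limma adjusted p = 0.76). These genes are known to encode the same mature protein behind different import sequences. Atp5g1 gave 8.62%, 9.17% and 8.97% of their summed RPKM in control and 9.79%, 11.2% and 9.59% in mutant hearts. The log2 difference of Atp5g1 against Atp5g3 had an exact permutation p = 0.10 (adjusted p = 0.35), the smallest possible, and that of Atp5g2 against Atp5g3 had 0.30 (0.42).

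Changes of the catalytic head of complex V were small. The α and β subunit genes Atp5a1 and Atp5b, among the highest of the set, had means of 705 and 736 RPKM in control and 749.6 and 799 RPKM in mutant hearts. Their log2 changes were 0.09 and 0.12, and the mutant values lay above the control values in both. Atp5d, the δ subunit of the central stalk, measured 134, 163 and 185 RPKM in controls 2, 5 and 9 and 177, 228 and 213 RPKM in mutants 5, 8 and 10, with overlap (0.36, limma adjusted p = 0.38). The change of Atp5d was 0.24 without control 2 and 0.16 without control 2 and mutant 8 together. Atp5d shares 2204 bases with Cbarp on the opposite strand. Atp5k, a membrane subunit at the interface of dimers, had means of 436 and 569 RPKM (0.38, limma adjusted p = 0.40). The peripheral stalk genes Atp5f1, Atp5h, Atp5j and Atp5o had changes of 0.14, 0.07, 0.05 and 0.22. The γ and ε subunit genes Atp5c1 and Atp5e had 0.09 and 0.15, and the membrane subunit genes Atp5j2 and Atp5l had 0.11 and 0.03. The genes Atp5s and Atp5sl had low levels per length, with control means of 5.59 and 8.26 RPKM and changes of 0.09 and 0.12.

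Over all 47 genes, each of which was tested, the median log2 change was 0.12, against −0.03 over all tested genes. Positive changes were 87.2% of the 47 and 42.6% of all tested genes. In 17 genes (36.2%) every mutant heart lay above every control heart, against the 7.6% of all tested genes, and in 1 gene every mutant heart lay below (9.43% of all). At an unadjusted limma p under 0.05, 13 were higher (4.92% of all) and 1 was lower (6.26%). The genes were picked by name and share reads, cells and hearts, so these counts are a description and not a test of the group. After rescaling without haemoglobin genes 11 genes did not overlap (4.61% of all) and 7 were higher at an unadjusted p under 0.05 (3.01% of all). The latter count was also 7 without control 2 (3.67% of all) or mutant 8 (4.3%), and 5 with only the hearts expressing chromosome Y genes (3.37%). Median centring changed the median of all tested genes from −0.029 to 0.006 and that rescaling to −0.065, while 38 to 43 of the 47 genes had positive changes under these scalings and the GC correction, and 35 of 41 under the length correction. Over all tested genes 51.5% were positive with median centring, 33.6% with that rescaling, 49.3% with the GC and 48.3% with the length correction. Higher without overlap were 17 of the 47 genes with median centring (10.0% of all) and 15 with the GC correction (11.3%). Leaving out each heart gave 37 to 44 positive changes among the 47 (39.4% to 49.0% of all tested genes).

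By heart, the median of the 47 genes against the control mean was 0.02 in control 2, −0.04 in control 5 and 0.02 in control 9. It was 0.14 in mutant 5, 0.14 in mutant 8 and 0.09 in mutant 10. The genotypes did not overlap in this median. The summed 5S RNA also differed among the libraries, with 10.2, 30.3 and 69.6 RPKM in the control hearts 2, 5 and 9 and 29.8, 184 and 111 RPKM in the mutant hearts 5, 8 and 10. Its part in these values was not tested. Within some complexes the genotypes did overlap in their medians. The complex IV median was 0.12, 0.22 and −0.02 in mutants 5, 8 and 10, and the complex III median was 0.14, −0.02 and 0.17. Complex II had 0.17, 0.14 and 0.22 and complex V had 0.18, 0.13 and 0.05, each above the control hearts. The 47 genes together made up 3.83%, 3.86% and 3.94% of the summed RPKM in the control hearts and 4.18%, 4.37% and 4.14% in the mutant hearts.

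**Figure D3:**
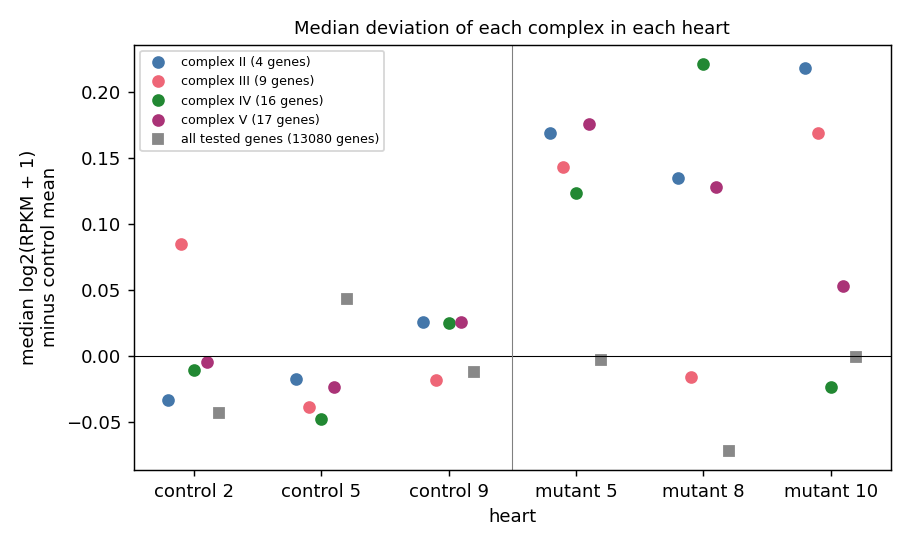
Median over the genes of each complex (circles) and over all 13080 tested genes (squares) of log2(RPKM + 1) minus the control mean, in each of the 6 hearts. Complexes II and V lie above all control hearts in each mutant heart, while complex III in mutant 8 and complex IV in mutant 10, each at −0.02, do not.

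The 47 genes did not vary as a block among the hearts. Control 2 was the lowest heart for 18 genes and the highest for 6 (Uqcrb, Uqcrh, Cycs, Cox6c, Cox7b and Atp5l, named after their values were seen). Control 5 was the lowest heart for more genes, 21, and the highest for 1. Mutant 8 was the highest heart for 20 genes and the lowest for 1, and mutant 5 was the highest for 12. The 6 genes with their peak in control 2 had transcripts of 40.8% to 49.9% GC (median 44.7%), and the 18 lowest there had 46.8% to 59.3% (median 54.2%). Across 46 genes without Cox4i2, Spearman's rho between GC and the deviation from the control mean was −0.595 in control 2, 0.446 in control 5 and 0.534 in control 9. It was 0.156, 0.422 and 0.252 in the mutant hearts 5, 8 and 10. These are descriptions across genes that share libraries, with no p. The control deviations of each gene cancel out by construction, so the rho values of the control hearts are not separate observations. The mutant deviations are taken from the same control mean, which includes control 2.

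**Figure D4:**
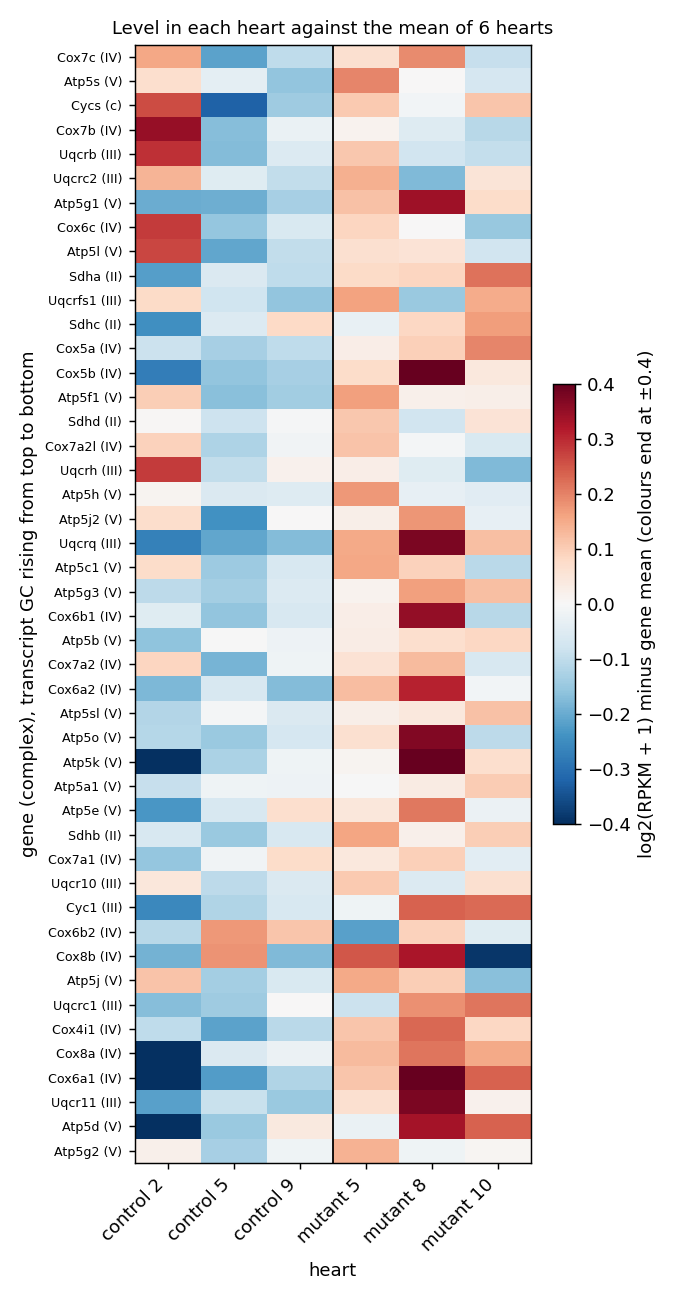
Log2(RPKM + 1) minus the mean of 6 hearts for 46 genes (rows, complex in brackets, GC content rising from top to bottom) in each heart (columns), with colours ending at ±0.4. Control 2 is the highest heart for 6 genes, most near the top, and the lowest for 18, most in the lower part, and Cox4i2 is left out because its range is larger.

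The log2 change itself also went with GC content. Across the 46 genes Pearson's r was 0.365 and Spearman's rho 0.341. Over all protein-coding genes the median change rose from −0.11 in the lowest to 0.05 in the highest of 5 equal bins of GC. The medians of the respiratory genes in these bins were 0.09 (5 genes), 0.02 (4), 0.12 (17), 0.14 (12) and 0.29 (9, with Cox4i2 left out of the median), each above that of all genes in its bin. Of 5 bins by exon length the shortest had a median of 0.06 over protein-coding genes, and the 30 respiratory genes in it had 0.11. With the trend against length removed in each library the median of 41 genes was 0.12, and with the trend against GC removed the median of 47 genes was 0.15. What each heart's GC trend adds to a single change was not tested apart from this.

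**Figure D5:**
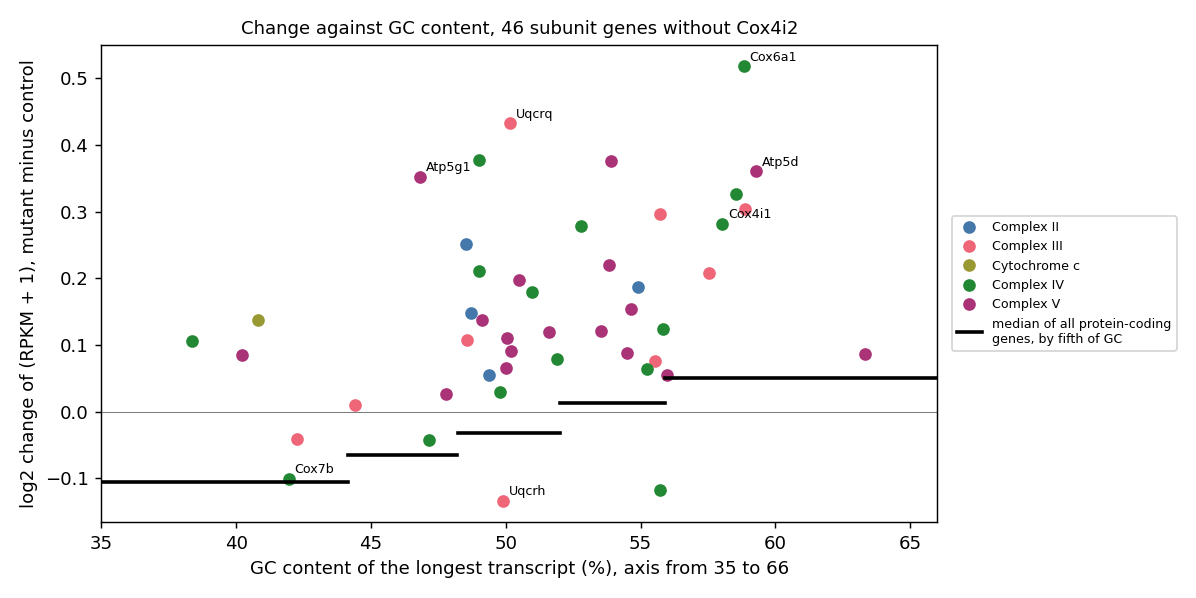
Log2 change of (RPKM + 1), mutant minus control, against transcript GC content in percent for 46 genes (points, coloured by complex), with black lines for the median of all protein-coding genes in each of 5 equal bins of GC, with the outer lines drawn to the ends of the axis. The black lines rise from −0.11 to 0.05, and Uqcrh and Cox6b2 are the respiratory genes below the line of their bin.

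Other genes that serve these complexes were not called either, and most had positive changes. Of 35 tested assembly factors of complexes II to V 28 had a positive change and the median was 0.13. Higd2a, which helps to assemble supercomplexes, had a control mean of 57.1 ± 1.44 RPKM and a mutant mean of 70.03 ± 3.65 RPKM (SD, n = 3; log2 change 0.29, limma adjusted p = 0.24). Coa4 measured 3.84 and 5.04 RPKM (limma adjusted p = 0.26), and the copper chaperone gene Sco2 8.23 and 10.1 RPKM (0.34). The complex I list had 36 tested genes, none called, 33 with a positive change and a median of 0.21, and whether it differs from complexes II to V was not tested. Its smallest p-values were those of Ndufb10 (82.2 and 111 RPKM), Ndufb9 (238 and 305 RPKM) and Ndufs7 (68.1 and 97.4 RPKM), with limma adjusted p of 0.11, 0.17 and 0.19. Of 16 tested regulators of mitochondrial biogenesis none was called, 6 had a positive change and the median was −0.02, or 0.07 without mutant 8. Ppargc1b measured 1.83 and 2.47 RPKM (limma adjusted p = 0.30), Esrra 6.87 and 7.78 RPKM (0.61) and Tfb1m 9.36 and 8.48 RPKM (0.64).

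Among 9 tested genes that link HIF1 to the respiratory chain, 3 fell and none rose, where 0.398% of all tested genes fell and 0.42% rose. One of the 3 was Cox4i2, which passed the filter only through the control hearts. The list's median change was −0.21. It was −0.13 without mutant 5 and, with a minimum of 5 RPKM, 0.17 over the genes left. Bnip3, which acts in the removal of mitochondria, measured 83.2, 75.3 and 86.6 RPKM in the control hearts 2, 5 and 9 and 19.9, 16.5 and 14.6 RPKM in the mutant hearts 5, 8 and 10. It fell from 81.7 ± 5.78 (SD, n = 3) to 17.0 ± 2.66 RPKM (limma adjusted p = 7.21e-05). Pdk1, a kinase that holds pyruvate dehydrogenase inactive, measured 18.1, 19.9 and 19.5 RPKM in the control hearts and 4.95, 3.57 and 3.37 RPKM in the mutant hearts. It fell from 19.2 ± 0.981 (SD, n = 3) to 3.96 ± 0.859 RPKM (limma adjusted p = 0.000133). Lonp1 measured 16.3, 18.6 and 18.9 RPKM in controls 2, 5 and 9 and 22.7, 23.9 and 24.6 RPKM in mutants 5, 8 and 10. Its mutant values were thus higher without overlap, with a log2 change of 0.39 (limma adjusted p = 0.14). Ndufa4l2 was too low to be tested, with 0.679, 1.55 and 1.16 RPKM in control and 0.488, 0.314 and 0.287 RPKM in mutant hearts. Its partner Ndufa4, a complex IV subunit by biochemistry, measured 943 and 1059 RPKM (limma adjusted p = 0.67). Mxi1 measured 4.06 and 2.91 RPKM (0.19).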

How the data were processed

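RNA from 6 whole hearts at E12.5 was sequenced, 3 control and 3 Hif1a mutant. The submitters' processing notes name Trim Galore, TopHat2 and mm10. How reads were counted, against which annotation and with what strand setting: not given in the sources used here. Values deposited by the authors are RPKM on a linear scale, computed per the file header over constitutive exons. The header states no unit, and RPKM was inferred from how the values behave. In single-exon genes 93.5% to 98.7% of low values lay within 0.1 of whole multiples of a step, which gave the implied reads. There were 31 such values in mutant 10 and more in every other heart. Depths were searched in a preset range only, and a whole multiple of a depth would fit as well. The table lists only genes with a geometric mean of at least 0.5 RPKM in a genotype. No libraries held identical values.

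The 13080 genes that reached 1 RPKM in 3 or more libraries were tested two-sided on log2(RPKM + 1) by limma (version 3.58.1, R version 4.3.3), using its trended prior and no covariate. The fit was tested on simulated data with the observed means. Their spreads followed the smoothed relation of observed spread to level, with random scatter and independent normal noise. Differences between hearts that genes share were not simulated. Changes were given to genes picked at random from all tested genes. The fit called 2.8% of genes given a log2 change of 0.3, 61.2% at 0.6 and 96% at 1. Changes of the size seen in most of the 47 genes were thus rarely called in this simulation. Recovery at the levels of the 47 genes was not taken apart. GENCODE M21 on mm10 held 14877 of 15118 identifiers and gave coordinates and the GC content of each longest transcript, and RefSeq (GRCm38.p6) gave promoters. Of the 47 genes 18 overlap another annotated gene, 14 of them on the opposite strand, and processed copies elsewhere could take or give reads.

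Values in every heart are given for genes past the threshold, the 2 genes with the smallest p of each complex, the isoform pairs and the subunit c genes, and the called genes of related lists. Up to 3 other genes of a list are given as means, by the smallest p. Lonp1 is given in every heart, and Ndufa4, Ndufa4l2 and Acta2 were added outside that rule, after their values were seen. So were Pln, Plvap and further mural, epicardial and mesenchymal markers. The lists are assembly factors, complex I, HIF1-linked genes, biogenesis regulators and markers of cardiomyocytes, erythroid, endothelial, mesenchymal, macrophage and (chosen after the values were seen) mural cells. The members and lists were chosen with earlier results of these data known. Alternatives were median centring, rescaling without haemoglobin genes, length trend removed, GC trend removed (chosen after seeing the data), no filter or 5 RPKM, limma without trend or with a robust prior, pseudocounts of 0.1 and 5, protein-coding genes, and fewer hearts. Python 3.11.15 and matplotlib 3.10.9 were used.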

Additional observations from a re-analysis of the deposited data

How the results depend on the processing

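No paired analysis was possible because the genotypes share a single sample number. The removal of the GC trend was chosen after seeing the data. The count of genes called higher was 0 of 47 and became 1 (Cox6a1) with the GC trend removed, and the count called lower was 1 and became 0 with a minimum of 5 RPKM, where Cox4i2 was not tested. The median over all 47 genes (0.121) was 0.156 with each library centred on its median and 0.0809 when haemoglobin genes were left out of the scaling, and 0.1 to 0.167 when each heart was left out. The complex II median (0.167) was 0.124 with that scaling, 0.228 with only the hearts expressing chromosome Y genes and 0.136 to 0.212 when each heart was left out. Among isoform pairs, the difference of Cox7a1 against Cox7a2 (−0.01) was 0.0022 with the length trend removed, 0.039 with only the hearts expressing chromosome Y genes and −0.137 to 0.0686 when each heart was left out, and that of Cox8b against Cox8a (−0.203) was −0.436 with only those hearts and −0.329 to 0.0164 when each heart was left out. Of the 47 genes 11 had the other sign in at least 1 setting, none of them called, and 33 moved over 1.5 times when some heart was left out. Of the genes given in every heart those with the other sign were Cox7a1 (−0.0292 without control 2 and mutant 8), Cox8b (−0.066 and −0.072 in both sets of 4 hearts, and −0.0085 to 0.349 when each heart was left out) and Atp5g2 (−0.0223 with the GC trend removed), and the others were Uqcrb, Uqcrc2, Cox6c, Cox7a2l, Cox7b, Atp5h, Atp5j and Atp5l. The causes were not tested. Over all genes 107 were called, against 45 to 198 when each heart was left out, 184 with the GC trend removed and 54 with only the hearts expressing chromosome Y genes. Cox4i2 rested on 36 to 76 implied reads per mutant heart, and 3 hearts per genotype limit the precision of every value.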
